A study of Mus musculus with 12 samples.

Results

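The interferon-stimulated genes described here are 52 genes named by symbol, and all 52 were found among the 26609 genes of a count table of regulatory T cells (Tregs) and all 52 were abundant enough to be tested with 13692 genes in all. They are transcripts that cells make after an interferon has bound its receptor. Tregs were sorted by flow cytometry from mesenteric lymph nodes, the nodes that drain the intestine, as CD4+CD25hiCD127lo cells. The mice were SAMP/YitFC, an inbred line that develops ileitis without any inducing agent, and were untreated. There were 3 libraries in each of 4 titled groups. KO females and KO males were SAMP/YitFC-ERb-KO mice, which lack Esr2, the gene of estrogen receptor beta, in the whole body. WT females and WT males were SAMP/YitFC-WT mice, the same line with that gene. Ages are not given. Nothing in the labels ties a library to a mouse of its own, and the p-values therefore reflect variation among these libraries, which may be technical. By their titles, the comparisons ask how Tregs with and without estrogen receptor beta differ in each sex. Esr2 counts did not follow those titles, as given below.

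Type I interferons act through the receptor subunits encoded by Ifnar1 and Ifnar2 and the kinases Jak1 and Tyk2. A transcription factor complex that includes Stat2 and Irf9 then binds interferon-stimulated response elements in the promoters of such genes, while interferon gamma acts through gamma-activated sites. The products block viral replication, sense foreign nucleic acid, conjugate the ubiquitin-like protein ISG15 to other proteins and feed back on the pathway. In T cells the same genes report exposure to interferon in the tissue.

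Several libraries did not follow their titles, so KO, WT, female and male below are titles and not verified states. Esr2 counts were 161, 94 and 128 in KO females, 8, 2 and 95 in KO males, 0, 133 and 159 in WT females and 0, 1 and 14 in WT males. They ran against the title in every KO female and every WT male library, in KO male 3 and in WT female 1. KO minus WT below therefore does not compare Tregs without and with Esr2 transcripts. Groups of libraries sorted by Esr2 count were not tested. The sex-linked transcripts Xist and Ddx3y, Eif2s3y, Kdm5d and Uty went against the title in 4 libraries, those labelled KO female 1, KO male 1, KO male 2 and WT female 2. Total counts per library were 10.2 to 16.7 M. Foxp3, the lineage factor of Tregs, was present at 583 to 926 CPM (counts scaled to the size of the library) in every library. Its sort marker Il2ra, which encodes CD25, was at 521 to 1007 CPM.

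The promoters of these genes often carried the core of the interferon-stimulated response element. RefSeq (GRCm38.p6) promoter windows were available for 42 of the 52 genes. This core, GAAA followed after any 2 bases by GAAA on either strand, stood in the 250 bases before the start in 14 of these 42 genes (33.3%), against 936 of all 27025 genes with a window (3.46%). TTCNNNGAA, the core of the gamma-activated site, stood in 5 of the 42 (11.9%), against 8.13% of all genes with a window. The response element core was found in 5 of 9 antiviral effectors, 2 of 3 immunity-related GTPases, 2 of 4 Schlafen genes, 1 of 3 OAS genes, 1 of 4 ISG15 conjugation genes, 1 of 4 other genes, 1 of 6 nucleic acid sensing genes and 1 of 9 signalling and chromatin regulators with a window. Some occurrences overlap each other, as in Isg15, and in Bst2 the core shares bases with a gamma-activated site core. A match is a description of the letters only. The 42 genes had 52 windows, and in 41 of these the 25 bases after the start occurred in a GENCODE transcript of the gene. In the remaining windows the start had no such match, so positions there rest on RefSeq alone.
The 150 bases before the start of 4 genes are printed 5′ to 3′ on the strand of the gene, because they show separate and overlapping copies of the element on either strand. Bst2 was taken by rule from the genes with the smallest p, and Isg15, Ifit1 and Irgm1 were chosen after their values were seen. Capitals mark the response element core or its reverse complement. Bst2 lies at chr8:71537473-71537622 on the minus strand, Isg15 at chr4:156200819-156200968 on the minus strand, Ifit1 at chr19:34640739-34640888 on the plus strand and Irgm1 at chr11:48871421-48871570 on the minus strand.
Bst2: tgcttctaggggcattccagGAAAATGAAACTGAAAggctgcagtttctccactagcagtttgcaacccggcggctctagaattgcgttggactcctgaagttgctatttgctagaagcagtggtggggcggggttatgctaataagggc
Isg15: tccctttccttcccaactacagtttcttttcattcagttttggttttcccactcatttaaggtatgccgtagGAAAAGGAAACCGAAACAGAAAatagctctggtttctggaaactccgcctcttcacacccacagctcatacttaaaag
Ifit1: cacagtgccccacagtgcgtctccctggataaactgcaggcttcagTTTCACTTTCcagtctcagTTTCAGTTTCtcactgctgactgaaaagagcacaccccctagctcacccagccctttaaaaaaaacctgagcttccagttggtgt
Irgm1: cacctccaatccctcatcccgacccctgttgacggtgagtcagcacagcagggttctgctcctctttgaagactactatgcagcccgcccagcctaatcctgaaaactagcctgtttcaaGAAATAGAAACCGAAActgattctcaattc
In Bst2 the copies begin 130 and 124 bases before the start, in Isg15 between 78 and 66 bases, in Ifit1 104 and 85 bases and in Irgm1 30 and 24 bases.

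The summed picture of the 52 genes differed between libraries of the same title as well as between titles. The mean log2 CPM over the 52 genes was 6.39, 6.44 and 6.80 in KO females, 6.33, 5.83 and 5.997 in KO males, 6.13, 5.37 and 6.21 in WT females and 6.12, 6.68 and 6.41 in WT males. The KO female libraries all lay above the WT female libraries, whereas KO male and WT male libraries overlapped. The group means were 6.54 ± 0.22 in KO females, 6.05 ± 0.25 in KO males, 5.90 ± 0.46 in WT females and 6.40 ± 0.28 in WT males (SD, n = 3 each). The library labelled WT female 2 stood apart: of the 12 libraries it was the lowest for 27 of the 52 genes, while over all genes tested it was the lowest for 4.21%. KO female 3 was the highest for 21 of the 52 (6.05% of all genes tested) and WT male 2 for 16 (7.30%). Of the 52 genes, 49 lay above their own 12-library mean in KO female 3, 45 in WT male 2, and 5 each in the libraries labelled KO male 2 and WT female 2. The share of all genes tested above their own mean was not computed. In bulk libraries fewer cells with a transcript and less RNA per cell cannot be told apart.

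**Figure D1:**
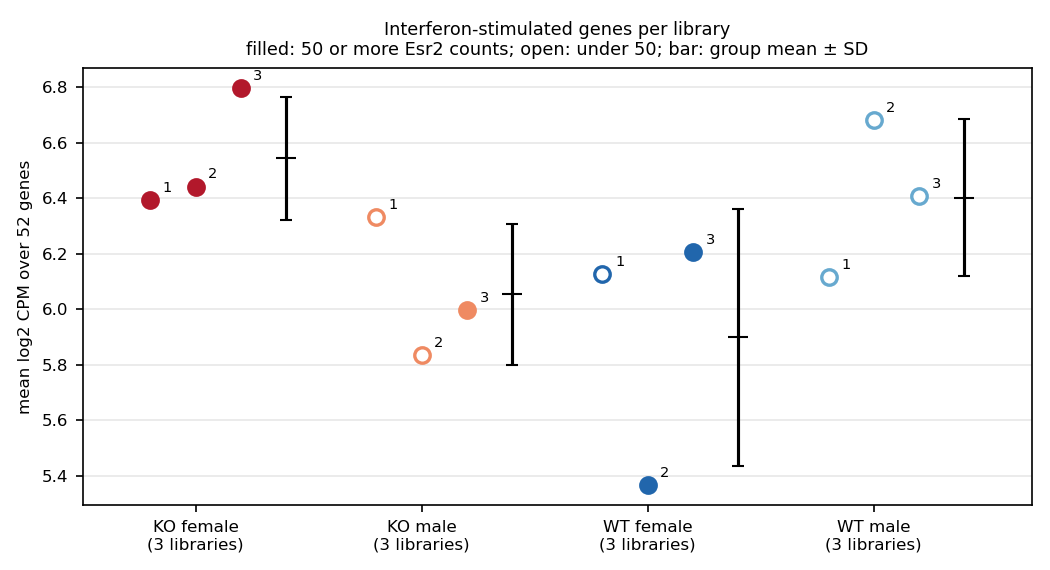
Mean log2 CPM over the 52 genes in each library (y axis), by titled group (x axis). Numbers are library numbers, filled points have 50 or more Esr2 counts and open points fewer, and black bars are group means ± SD. KO females lie between 6.39 and 6.80, above the WT females between 5.37 and 6.21, and filled and open points overlap.

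**Figure D2:**
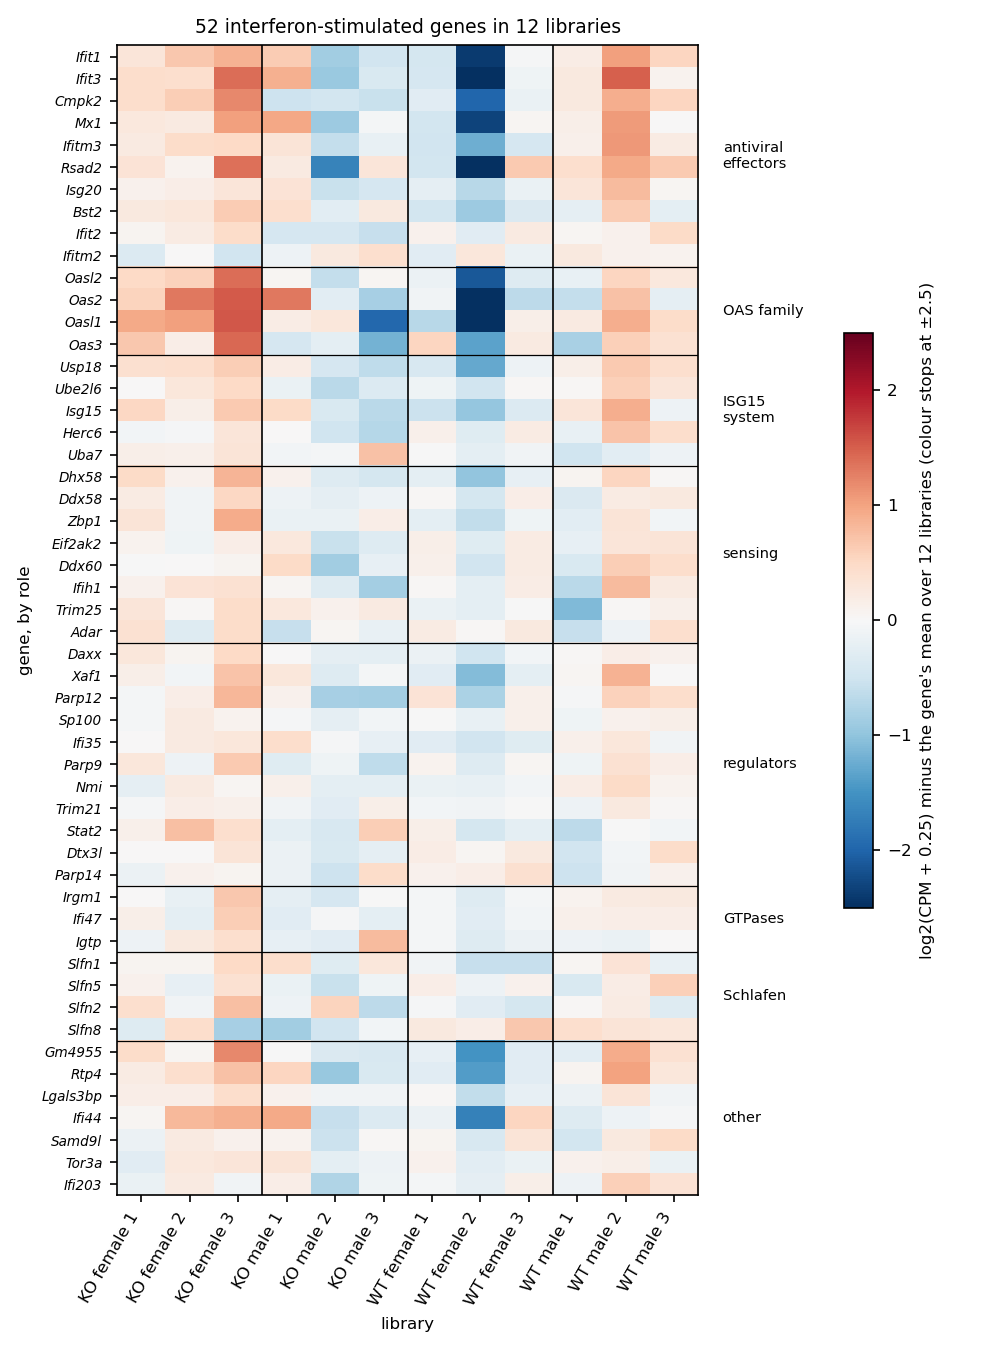
Each of the 52 genes (rows, by role) in 12 libraries (columns): log2(CPM + 0.25) minus the gene's own mean, red above and blue below. WT female 2 is the lowest library for 27 of the 52 genes and is darkest among antiviral effectors and OAS genes, while 49 genes in KO female 3 and 45 in WT male 2 are above their mean.

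In females, most of the interferon-stimulated genes were higher in KO than in WT libraries, but none passed the test across all genes. Of the 52 genes, 48 had a positive log2 fold change for KO minus WT in females, with a median of 0.48, against a median of 0.01 over all genes tested. At an unadjusted p under 0.05, 24 were higher (2.94% of all genes tested were) and 0 were lower (4.77%). None passed edgeR's quasi-likelihood test with Benjamini-Hochberg adjustment over the 13692 genes, in which 0% of all genes passed and the smallest adjusted p of the 52 was 0.459. All KO female libraries lay above all WT female libraries in 23 of the 52 (9.2% of all genes tested) and below in 1, Parp14 (11.8%). DESeq2 called 1 of the 52, Cmpk2, and 0.161% of all genes. Limma voom with quality weights called 20, all higher, and 12.4% of all genes. EdgeR without the filter on low counts called 17, all higher, and 0.537% of all genes. The unadjusted count depended in part on single libraries, as it was 14 without KO female 3 and 14 without WT female 2. With these left out, 44 and 41 of the 52 genes were positive. Leaving out the 4 libraries with opposed sex-linked transcripts gave 19.

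In males, most of the genes were lower in KO than in WT libraries, and again none passed. Of the 52 genes, 41 had a negative log2 fold change for KO minus WT in males, with a median of -0.37, against a median of 0.01 over all genes tested. At an unadjusted p under 0.05, 10 were lower (6.3% of all genes tested) and 1, Uba7, was higher (7.92%). None passed edgeR's quasi-likelihood test with Benjamini-Hochberg adjustment, in which 0.073% of all genes passed and the smallest adjusted p of the 52 was 0.116. The KO male libraries lay below the WT male libraries in 9 of the 52 (7.45% of all genes tested) and above in 1, again Uba7 (6.95%). DESeq2 called Ifit2 and Ube2l6, both lower, and 3.06% of all genes, which is near the share of the 52. Limma voom called 0 of the 52 and 0% of all genes. EdgeR without the filter on low counts called 8, all lower, and 1.8% of all genes. The count of 10 lower genes became 3 without WT male 2, 5 without KO male 2, 6 without KO male 3, 16 without WT male 1 and 17 without KO male 1. The median of -0.37 was -0.22 without WT male 2. WT male 2 and 3 carry the same title number and may share a source, and summing them to 1 library gave 5 lower genes. Leaving out the 4 libraries with opposed sex-linked transcripts gave 15 lower genes. Uba7 then passed as higher, as did 0.894% of all genes, but only KO male 3 remained in its group, its spread was assumed to be that of the other groups, and it holds the highest Uba7 value of the 12 libraries.

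The difference between the female and the male effect was positive for 48 of the 52 genes. This interaction, KO minus WT in females less KO minus WT in males, had a median of 0.76 on the log2 scale over the 52 genes and -0.01 over all genes tested. At an unadjusted p under 0.05, 27 of the 52 were positive (1.37% of all genes tested) and 0 were negative (3.45%). None passed edgeR's quasi-likelihood test with Benjamini-Hochberg adjustment (0% of all genes), with a smallest adjusted p of 0.900, while DESeq2 called Cmpk2 (0.0219% of all genes) and limma voom 0 (0%). EdgeR without the filter on low counts called 16, all positive, and 0.431% of all genes. The count of 27 was 16 without KO female 3. Since it uses all 12 libraries, the interaction is not independent of either sex's comparison. Averaged over the sexes, KO minus WT had a median of 0.12, with 6 genes higher (7.84% of all genes tested) and 1 lower (8.11%) at an unadjusted p under 0.05. In that average 0 of the 52 passed edgeR's adjusted test, whereas 1.5% of all genes did, and in 0 of the 52 were the 6 KO libraries all above (0.971%) or all below (1.43%) the 6 WT libraries. DESeq2 called 0 of the 52 and 4.71% of all genes, and limma voom called Uba7 and 4.36% of all genes, so that both shares of the 52 lay below those of all genes. EdgeR without the filter on low counts called 3 higher, Oasl2, Oas2 and Bst2, and 2.55% of all genes. The 6 higher genes were Uba7, Bst2, Oas2, Trim25, Stat2 and Slfn1, and the lower gene was Slfn8. Leaving out WT female 2 gave 3 higher genes, and leaving out KO male 2 or WT male 2 gave 10. The median of 0.12 lay between 0.016 without WT female 2 and 0.20 without WT female 3. It was 0.017 without KO male 1, 0.025 without KO female 3, 0.18 without KO female 2, 0.18 without WT male 2 and -0.023 once the 4 libraries with opposed sex-linked transcripts were left out.

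**Figure D3:**
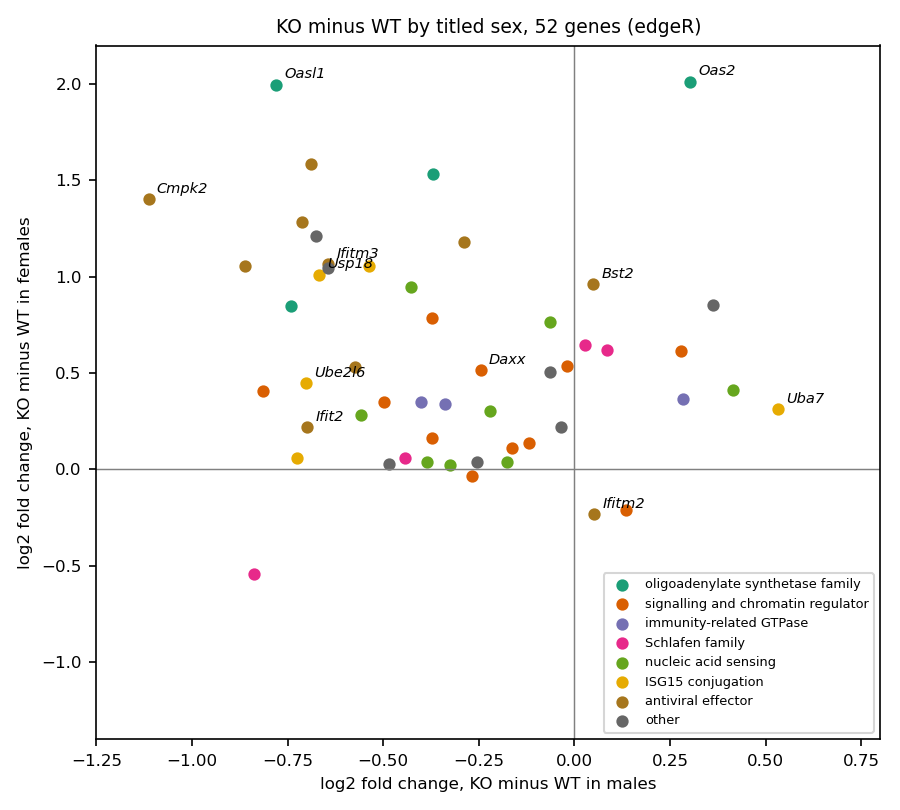
Log2 fold change of KO minus WT in females (y axis) against that in males (x axis) for the 52 genes, coloured by role. Most points lie in the upper left (48 of 52 above 0 on the y axis, 41 of 52 below 0 on the x axis), with Cmpk2 at 1.40 and -1.11, while Uba7 and Bst2 lie right of 0.

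Within KO, most of the genes were higher in female libraries, and within WT most were lower. In KO libraries, 50 of the 52 genes had a positive log2 fold change for female minus male (median 0.40), against 49.4% of all genes tested (median -0.005). At an unadjusted p under 0.05, 14 were higher (2.03% of all genes tested) and 0 lower (3.24%), and the libraries did not overlap in 13 higher (3.64%) and 0 lower (3.35%) genes. In WT libraries, 45 of the 52 were negative (median -0.32), while 50.65% of all genes tested were positive (median 0.005). There 17 were lower (2.48%) and 0 higher (4.05%) at an unadjusted p under 0.05, and the libraries did not overlap in 18 lower (8.13%) and 1 higher gene, Parp14 (7.55%). In both comparisons edgeR's quasi-likelihood test with Benjamini-Hochberg adjustment called 0 of the 52, and 0% of all genes. In WT, DESeq2 called Ifitm3 and 0.219% of all genes, limma voom called 5, all lower, and 2.54% of all genes, and edgeR without the filter on low counts called 12, all lower, and 0.777% of all genes. In KO, DESeq2 and limma voom called 0, and edgeR without the filter called 4, all higher, and 0.256% of all genes. These comparisons share their libraries with the ones above. The count in KO was 5 without KO female 3. The count in WT was 7 without WT female 2, 4 without WT male 2, 11 with WT male 2 and 3 summed and 9 once the 4 libraries with opposed sex-linked transcripts were left out. The WT median of -0.32 was -0.20 without WT female 2 and -0.19 without the 4 opposed libraries.

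**Figure D4:**
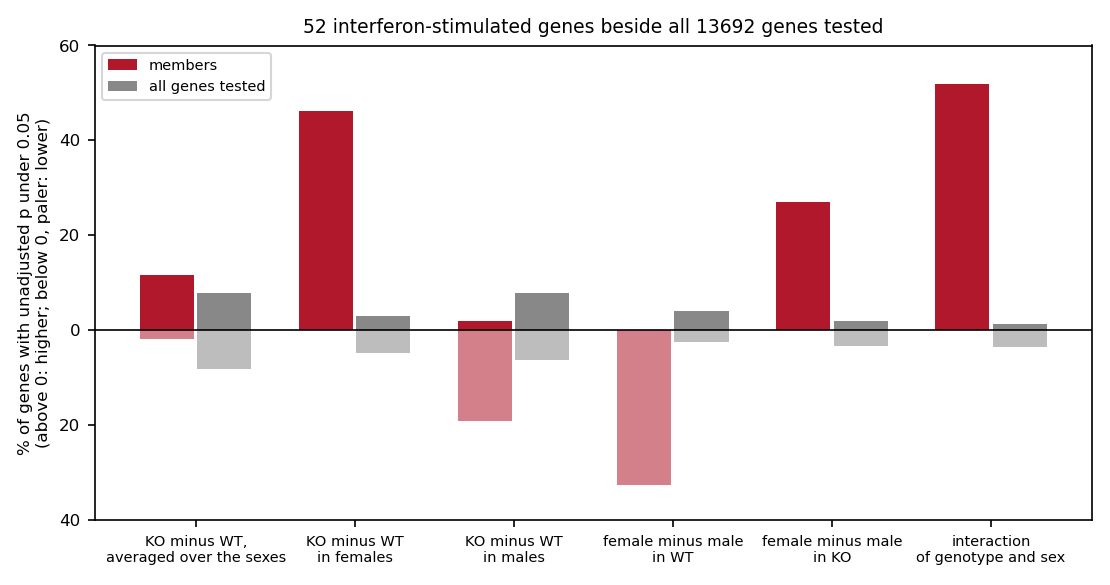
Percentage of genes with an unadjusted p under 0.05 in each comparison (y axis; higher above 0, lower and paler below 0) for the 52 genes (red) and all 13692 genes tested (grey). The 52 genes reach 46.2% higher in females and 51.9% positive for the interaction, where all genes reach 2.94% and 1.37%.

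The antiviral effectors held the gene with the smallest p of the interaction. Their median log2 fold change for KO minus WT was 1.06 in females and -0.67 in males, with 7 of 10 higher in females (2.94% of all genes) and 4 of 10 lower in males (6.3%) at an unadjusted p under 0.05. Cmpk2, a mitochondrial nucleotide kinase next to Rsad2, had 47.5, 53.7 and 80.1 CPM in KO females, 24.2, 25.4 and 23.6 CPM in KO males, 28.6, 8.66 and 31.3 CPM in WT females and 41.5, 66.1 and 50.9 CPM in WT males. KO females were above WT females and KO males below WT males in every library. Its log2 fold changes were 1.40 (SE 0.36) in females and -1.11 (SE 0.36) in males, and the interaction was 2.52 (SE 0.50, adjusted p = 0.900 with edgeR). Ifit2, which binds viral RNA and inhibits translation, had 58.0, 64.7 and 76.3 CPM in KO females, 41.8, 41.5 and 37.1 CPM in KO males, 59.8, 45.9 and 65.2 CPM in WT females and 57.9, 60.2 and 77.3 CPM in WT males. All KO male libraries were below all 9 others. KO minus WT in males was -0.70 (SE 0.18, edgeR adjusted p = 0.116), and female minus male in KO was 0.72 (SE 0.18).

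Bst2, the tetherin that holds budding virions at the cell surface, had 64.8, 66.4 and 85.1 CPM in KO females, 73.0, 45.8 and 64.9 CPM in KO males, 39.7, 29.0 and 42.3 CPM in WT females and 46.7, 84.4 and 46.4 CPM in WT males. It separated KO from WT in females (0.96, SE 0.25, edgeR adjusted p = 0.459) and overlapped in males (0.05, SE 0.25). Ifitm3, which blocks fusion of viruses in endosomes, had 44.4, 52.2 and 53.7 CPM in KO females, 47.8, 25 and 33.7 CPM in KO males, 27.3, 16.2 and 28.3 CPM in WT females and 41.7, 80.7 and 44.0 CPM in WT males. The WT female libraries were the lowest group and lay below every WT male library, with female minus male in WT of -1.21 (SE 0.30, edgeR adjusted p = 0.536).

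The other effectors are given by their extreme group means. Ifit1, which recognises viral RNA caps, had 211 CPM in KO females and 86.8 CPM in WT females. Ifit3, a partner of Ifit1 and Ifit2, had 100.4 CPM in KO females and 33.5 CPM in WT females, and its single libraries ran from 6.08 CPM in WT female 2 to 160.0 CPM in WT male 2. Mx1, a dynamin-like GTPase that traps viral nucleoproteins, had 24.5 CPM in KO females and 10.8 CPM in WT females. Rsad2, viperin, had 10.1 CPM in KO females and 4.87 CPM in WT females. Isg20, an exonuclease, had 73.1 CPM in WT females and 123 CPM in WT males. Ifitm2 was the exception, with 8.08 CPM in KO females and 11.2 CPM in KO males. Ifit and Ifitm genes have close relatives, so reads may be split between copies.

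**Figure D5:**
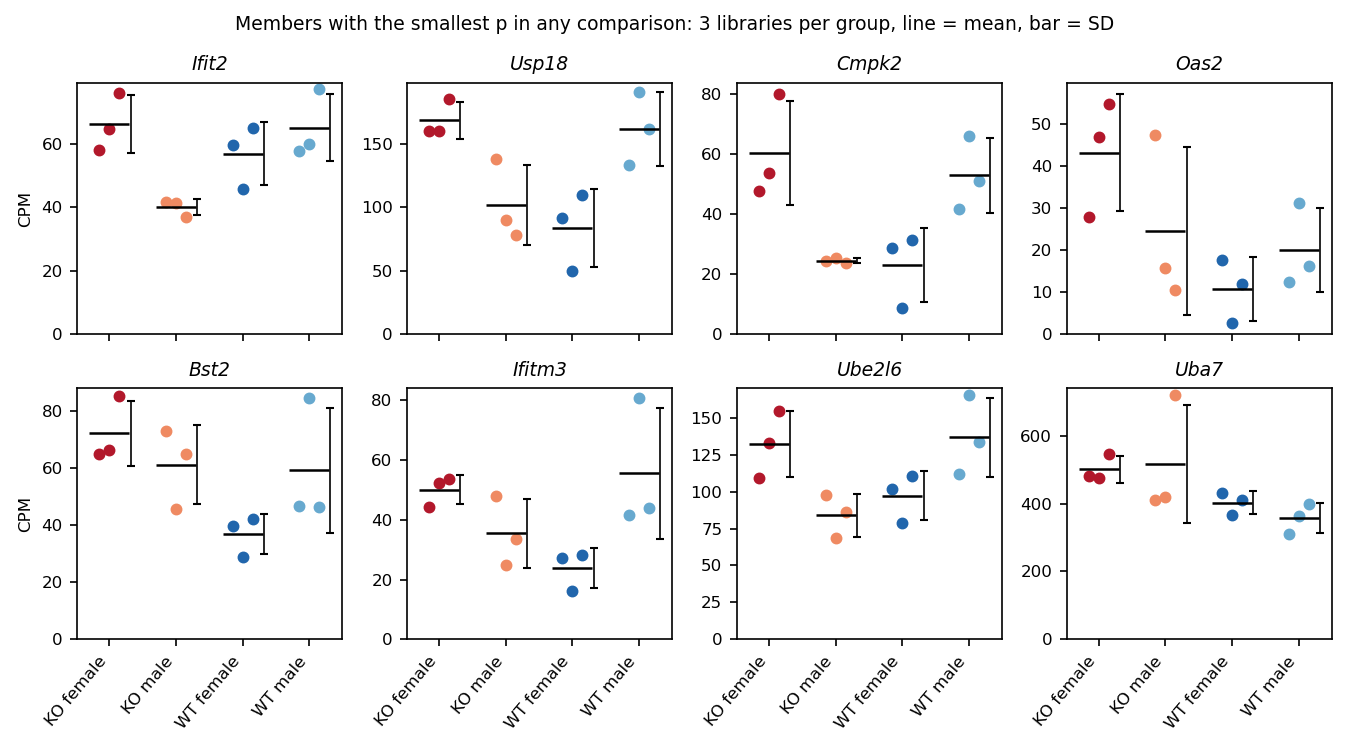
CPM of the 8 genes with the smallest p in any comparison (y axis from 0), with 1 point per library, group means as lines and SD as bars. Cmpk2 separates KO from WT in both sexes in opposite directions, Ifit2 is lowest in KO males, and Uba7 is higher in KO in both sexes.

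The OAS family had the largest median of the 8 roles in females. Enzymes of this family make oligoadenylates that activate the nuclease RNase L, an activity that Oasl1 lacks. Their median for KO minus WT was 1.76 in females and -0.56 in males, and 3 of 4 were higher in females at an unadjusted p under 0.05 (2.94% of all genes). Oas2 had 27.7, 46.9 and 54.6 CPM in KO females, 47.3, 15.6 and 10.4 CPM in KO males, 17.7, 2.51 and 11.8 CPM in WT females and 12.3, 31.2 and 16.1 CPM in WT males. KO females were above WT females in every library, and the KO male values were scattered. KO minus WT was 2.01 in females (SE 0.62), 0.30 in males (SE 0.59) and 1.16 averaged over the sexes (SE 0.43, edgeR adjusted p = 0.192). That average was 0.70 without KO male 1 and 0.41 without the 4 libraries with opposed sex-linked transcripts. Oasl1 had 12.4 CPM in KO females and 3.11 CPM in WT females as extreme group means, and Oasl2 had 54.4 CPM in KO females and 18.8 CPM in WT females. Oas3 had 84.5 CPM in KO females and 31.4 CPM in KO males. Oasl1 in WT female 2, with 6 counts, was the lowest count of any of the 52 genes in any library.

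The ISG15 system comprises the ubiquitin-like protein ISG15, its activating enzyme Uba7, its conjugating enzyme Ube2l6, its ligase Herc6 and the protease Usp18, which also restrains receptor signalling. Usp18 had 160.0, 160.5 and 185 CPM in KO females, 138, 89.8 and 77.8 CPM in KO males, 91.7, 49.4 and 109.9 CPM in WT females and 133, 191 and 162 CPM in WT males. KO females were above WT females in every library, and KO and WT males overlapped. KO minus WT was 1.01 in females (SE 0.27, edgeR adjusted p = 0.459) and -0.67 in males (SE 0.26). Ube2l6 had 109, 133 and 154 CPM in KO females, 97.8, 68.8 and 86.0 CPM in KO males, 102, 78.8 and 111 CPM in WT females and 112, 165 and 134 CPM in WT males. KO males lay below WT males in every library (-0.70, SE 0.20, edgeR adjusted p = 0.140). Uba7 did not follow the others: it had 482, 475 and 546 CPM in KO females, 412, 420.4 and 719.8 CPM in KO males, 433, 366 and 410.5 CPM in WT females and 309, 364 and 399 CPM in WT males. In both sexes its KO libraries lay above its WT libraries, and KO minus WT averaged over the sexes was 0.42 (SE 0.14, edgeR adjusted p = 0.154), or 0.26 without KO male 3. Isg15 had extreme group means of 70.4 CPM in KO females and 33.9 CPM in WT females, and Herc6 of 51.2 CPM in KO males and 84.8 CPM in WT males.

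Among 8 genes that sense or act on nucleic acid, all had a positive log2 fold change for KO minus WT in females (median 0.29), and 7 of 8 a negative one in males (median -0.27). Dhx58, an RNA helicase that regulates this sensing, had extreme group means of 86.9 CPM in KO females and 45.0 CPM in WT females. Ddx58, the sensor RIG-I, had 188 CPM in KO females and 143 CPM in KO males. Ifih1, the sensor MDA5, had 67.3 CPM in KO females and 44.0 CPM in KO males. Zbp1, a sensor of Z-form nucleic acid, had 239.8 CPM in KO females and 141 CPM in WT females. Adar, which edits adenosine to inosine in double-stranded RNA, had 344 CPM in KO females and 257 CPM in KO males. Trim25, a ubiquitin ligase for RIG-I, had 96.7 CPM in KO females and 69.0 CPM in WT males. Ddx60 had 72.9 CPM in KO males and 95.3 CPM in WT males. Eif2ak2, the kinase PKR, had 28.8 CPM in KO males and 36.1 CPM in WT males.

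The 11 signalling and chromatin regulators had a median for KO minus WT of 0.35 in females and -0.25 in males. Stat2, the signal transducer, had extreme group means of 332 CPM in KO females and 209 CPM in WT males. Daxx, a histone chaperone, had 263 CPM in KO females and 184 CPM in WT females. Ifi35 had 206 CPM in KO females and 142 CPM in WT females, and its partner Nmi had 89.5 CPM in WT females and 117 CPM in WT males. Xaf1, a pro-apoptotic protein, had 44.0 CPM in WT females and 79.7 CPM in WT males. Sp100, a nuclear body component, had 766 CPM in KO females and 669 CPM in KO males. Trim21, a cytosolic antibody receptor, had 142 CPM in KO females and 128 CPM in KO males. Among the ADP-ribosyltransferase genes, Parp9 had 191 CPM in KO females and 123 CPM in KO males and Parp12 had 40.5 CPM in KO females and 22.8 CPM in KO males. Parp14 had 146 CPM in WT females and 113 CPM in WT males. Dtx3l, a ubiquitin ligase that pairs with Parp9, had 157 CPM in KO males and 208 CPM in WT females. Parp9 and Dtx3l share 458 exon bases on opposite strands, which the unstranded libraries cannot tell apart.

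The 3 immunity-related GTPases, which act on vacuoles of intracellular pathogens in mice, had a median for KO minus WT of 0.35 in females and -0.34 in males. The 4 Schlafen genes, which include regulators of T-cell growth, had medians of 0.34 and -0.21 in the same comparisons. Per kilobase of exon, Igtp (381 CPM), Ifi47 (222 CPM) and Slfn2 (194 CPM) had the highest mean levels, and Ifi44 (0.575 CPM) and Slfn8 (0.928 CPM) the lowest. Ifi47 had extreme group means of 625 CPM in KO females and 474 CPM in KO males, Irgm1 of 319 CPM in KO females and 236 CPM in KO males, and Igtp of 859 CPM in KO females and 666 CPM in WT females. Slfn1 had 102 CPM in KO females and 66.5 CPM in WT females, and Slfn2 had 409 CPM in KO females and 262 CPM in WT females. Slfn5 had 94.2 CPM in KO males and 128 CPM in WT males. Slfn8 had 2.59 CPM in KO males and 4.73 CPM in WT females.

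Of the remaining genes, Gm4955, listed as Ifi206 in RefSeq, had 69.3 CPM in KO females and 30.0 CPM in WT females. Rtp4, a chaperone of opioid and taste receptors, had 57.6 CPM in WT females and 122 CPM in WT males. Ifi44 had 4.97 CPM in KO females and 2.75 CPM in WT females. Samd9l had 255 CPM in KO males and 304 CPM in WT males. Lgals3bp, a secreted glycoprotein, had 97.7 CPM in KO females and 68.8 CPM in WT females. Tor3a had 50.7 CPM in KO females and 43.5 CPM in WT females, and Ifi203 had 67.8 CPM in KO males and 94.9 CPM in WT males.

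Most of the 52 genes varied together across libraries. Over the 12 libraries, the Pearson correlation of a gene's log2 CPM with the mean of the other 51 had a median of 0.73 and was over 0.8 for 22 of the 52, as a description in which every point shares a library and its depth. It was highest for Gm4955 (0.96), Ifit1 (0.95), Rtp4 (0.95) and Usp18 (0.94). It was lowest for Ifitm2 (-0.61), Slfn8 (-0.19), Parp14 (-0.01), Adar (0.14) and Uba7 (0.15). Among 13640 other genes tested, 18 correlated with the mean of the 52 at over 0.8. These included Irf7 (0.94), the interferon regulatory factor that amplifies the response, Irf9 (0.88) and Oas1a (0.87), and 9 of the 18 stood on the lists of pathway genes, which held 111 of the 13640.

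The mean of the 52 genes did not sort libraries by Esr2 count. In the 6 libraries with 50 or more Esr2 counts the mean log2 CPM lay between 5.37 and 6.80 (median 6.30), and in the 6 with fewer it lay between 5.83 and 6.68 (median 6.23). In all 52 genes the ranges of both sets overlapped, and the share over all genes was not computed for these sets. Between the 6 KO and 6 WT libraries by title, only 0.971% of all genes tested lay apart as higher and 1.43% as lower. Overlap is thus the usual outcome for sets of this size and is not particular to the 52 genes.

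The interferons themselves were almost undetected. Of 17 interferon genes in the table, only Ifng was abundant enough to test, at 1.52 to 11.1 CPM, and Ifnb1 had 7 counts over all 12 libraries. Of the receptor subunits, Ifnar1 had 142 to 283 CPM and Ifnar2 127 to 168 CPM. Of 111 tested pathway genes outside the 52, 1 passed in any comparison. It passed in the average over the sexes, where 1.5% of all genes passed, a share above that of the 111. This gene, Gbp1, an interferon-induced GTPase, fell in KO libraries by 0.68 averaged over the sexes (SE 0.12, edgeR adjusted p = 0.0227). It averaged 435 ± 60.4 CPM in KO females, 361 ± 17.8 CPM in KO males, 624 ± 104 CPM in WT females and 649 ± 129.6 CPM in WT males (SD, n = 3 each). Irf7 had 253, 264 and 374 CPM in KO females, 247, 149 and 198 CPM in KO males, 161, 75.0 and 144 CPM in WT females and 188, 324 and 202 CPM in WT males. Its KO minus WT was 1.23 in females (SE 0.29, edgeR adjusted p = 0.459) and -0.27 in males (SE 0.29).

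The lists of pathway genes outside the 52 followed their signs in part. In females 33 of 44 other interferon-stimulated, 20 of 26 guanylate-binding and type II response and 10 of 16 nucleic acid sensing genes were positive for KO minus WT. In males 27, 16 and 10 of these were negative. Over all genes tested, 51.0% were positive in females and 51.2% in males, and counts such as 10 of 16 lie near an even split. Receptor and signalling genes (8 of 16 positive in females, 9 negative in males) and interferon regulatory factors (5 of 8 and 4) were nearer to even. At an unadjusted p under 0.05 for KO minus WT in females, 2 of 16 receptor and signalling genes and 1 of 8 interferon regulatory factors were higher. So were 1 of 16 nucleic acid sensing genes, 1 of 26 guanylate-binding and type II response genes and 7 of 44 other interferon-stimulated genes. Of those 44, 3 were lower, beside 2.94% higher and 4.77% lower among all genes tested. For KO minus WT in males, 3 of the 44 were higher and 4 lower. Of the 26, 2 were higher and 1 lower, and of the 16 nucleic acid sensing genes 1 was higher and 1 lower. Among all genes tested, 7.92% were higher and 6.3% lower in males. Ciita, which drives MHC class II genes, had 12.1, 13.4 and 39.4 CPM in KO females, 15.2, 13.1 and 31.1 CPM in KO males, 21.1, 12.4 and 3.87 CPM in WT females and 4.68, 3.65 and 2.75 CPM in WT males. It was at 2.41 (SE 0.58, edgeR adjusted p = 0.0938) for KO minus WT in males. Sp110 was at 0.48 (SE 0.14) and Ifi27l2a at 1.198 (SE 0.39) for KO minus WT in females. Pml was at 0.61 (SE 0.21), Tdrd7 at 0.99 (SE 0.34) and Irf9 at 0.39 (SE 0.14) for female minus male in KO, and none of these 6 genes passed.

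Markers of other cells differed between the titled groups as well. Summed B-cell markers (12 of 12 in the table) were 198 to 438 CPM in KO females, 190.2 to 349.5 CPM in KO males, 68.2 to 251 CPM in WT females and 47.6 to 71.4 CPM in WT males. All 12 were positive for KO minus WT in both sexes, with a median log2 fold change of 0.97 in females and 3.31 in males, and their interaction median was -2.53, opposite in sign to that of the interferon-stimulated genes. Conventional dendritic cell markers (11 of 11 in the table) summed to 700.1 to 1651 CPM in KO females, 728 to 1319 CPM in KO males, 260.4 to 837 CPM in WT females and 256 to 296 CPM in WT males. Most of this sum came from Cd74, H2-Ab1 and H2-Aa, with means of 543, 83.8 and 73.8 CPM over the 12 libraries. The remaining dendritic cell markers averaged 0.516 CPM (Clec9a) to 9.79 CPM (Fscn1), so the sum mostly follows those genes. Macrophage and monocyte markers (11 of 12 analysed) summed to 239.5 to 453 CPM in KO females, 194 to 389 CPM in KO males, 55.4 to 378 CPM in WT females and 30.5 to 66.6 CPM in WT males. For KO minus WT the dendritic cell median was -0.10 in females and 1.67 in males, and the macrophage median was 0.53 in females and 2.29 in males. Averaged over the sexes, 7 of 12 B-cell, 4 of 6 tested neutrophil, 2 of 10 tested dendritic cell and 1 of 11 macrophage markers passed edgeR's adjusted test. All of these were higher in KO, and 1.5% of all genes passed. In males alone 3 B-cell markers passed, beside 0.073% of all genes. Neutrophil markers (9 of 9 in the table) summed to 6.82 to 53.2 CPM in KO females, 1.86 to 14.6 CPM in KO males, 0.463 to 1.00 CPM in WT females and 0 to 0.82 CPM in WT males. Plasmacytoid dendritic cells are strong interferon producers, and 14 of 14 of their markers summed to 387 to 434 CPM in KO females, 357 to 408 CPM in KO males, 352 to 384 CPM in WT females and 323 to 377 CPM in WT males. Most of that sum came from Irf8, Pacsin1, Ccr9 and Lag3, with means of 118.5, 109.9, 48.0 and 46.1 CPM over the 12 libraries. The sum thus mostly follows those genes. Siglech, a defining marker, was at 0.32 to 6.95 CPM, and Klk1, Cox6a2 and Cd300c were at 0 in 4 to 5 libraries each. Genes listed for RNA quality and sample handling (10 of 10), such as Fos, Jun, Junb and Malat1, were summed as well. They gave 4653 to 5534 CPM in KO females, 4509 to 14302 CPM in KO males, 3620 to 7290 CPM in WT females and 6342 to 9073 CPM in WT males, and were lowest in WT female 2. Most of this sum came from Malat1, with a mean of 4156 CPM over the 12 libraries. The median of the 10 genes for KO minus WT was 0.36 in females and -0.20 in males, and 0.63 for the interaction, the same signs as the interferon-stimulated genes. For female minus male in WT all 10 were negative, with a median of -0.66. The part of these markers in the differences of the interferon-stimulated genes was not tested.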

How the data were processed

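Per the labels' protocols, sequencing libraries were Nextera XT preparations of SMART-Seq v4 cDNA, from RNA extracted by a NucleoSpin XS kit. This chemistry does not mark strand. The deposited gene counts were made with HISAT2 2.0.5 and featureCounts 1.5.0-p2 (Subread) on GRCm38, per the submitters' processing notes, which also name edgeR. For the annotation release and the strand setting of the counting, the sources used here give nothing. The deposited log2 values, for 24584 genes, equalled the log2 CPM computed from the counts with a prior count of 0.25 to within 5e-14, and the counts were used for every test.

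Genes were kept by filterByExpr (13692 of 26609 genes, which held 99.8% or more of every library's counts) and scaled by TMM. An edgeR 4.0.16 quasi-likelihood fit in R 4.3.3 over all 12 libraries and 4 titled groups gave the 6 comparisons, with two-sided tests, with Benjamini-Hochberg adjustment over all genes and a threshold of 0.05. Common biological variation between libraries of a group was 29.3% (coefficient of variation). CPM is not scaled to gene length, so levels are compared between genes only per kilobase of exon. DESeq2 1.42.0 and limma 3.58.1 served as alternatives, with other size factors, a prior count of 2, no filter, a replicate block, single libraries left out, WT male 2 and 3 (which carry the same title number) summed, and libraries with opposed sex-linked transcripts left out. The test was checked on simulated counts.

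The members and lists were chosen with earlier results of these data known. Values of every library are given for the 3 genes with the smallest p in each comparison, and other members are given by role and extreme group means. The 10 members without a RefSeq promoter window were not searched for motifs.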

Additional observations from a re-analysis of the deposited data

Results flagged for a closer look

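In Cmpk2 and Daxx every KO female library lay above every WT female library and every KO male library lay below every WT male library. The interaction of genotype and sex was 2.52 on the log2 scale for Cmpk2 and 0.76 for Daxx, and neither passed edgeR's test (adjusted p = 0.900 for each). Daxx had 262, 225 and 301 CPM in KO females, 216, 184 and 182 CPM in KO males, 195, 152 and 205 CPM in WT females and 219, 240.1 and 231 CPM in WT males.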

How the results depend on the processing

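Of the values recomputed under alternatives, 681 were labelled as kept, by wide rules. Counts were kept within 1.5 times, and medians (of the same sign) and library means within the SD between libraries of a group. Single genes were kept with the same sign and side of the threshold. By these rules a median of 0.12 that became 0.017 without KO male 1 was kept. In 39 values genes passed after adjustment that had not passed before, 23 moved (counts by over 1.5 times) and 1 reversed. The cause was not tested. With edgeR's adjusted test, 0 of the 52 genes passed in any comparison. DESeq2 called 1 in females (0.161% of all genes), 2 in males (3.06%), 1 for female minus male in WT (0.219%) and 1 for the interaction (0.0219%). Limma voom called 1 averaged over the sexes (4.36%), 20 in females (12.4%) and 5 for female minus male in WT (2.54%). Without the low-count filter the counts were 3 averaged over the sexes (2.55%), 17 in females (0.537%), 8 in males (1.8%), 12 for female minus male in WT (0.777%), 4 for female minus male in KO (0.256%) and 16 for the interaction (0.431%). Without the libraries whose sex-linked transcripts opposed the title, 1 gene passed in males (0.894% of all genes), from a group of 1 KO male library whose spread was assumed to be that of the others, and the median averaged over the sexes was -0.023, against 0.12 with them. At an unadjusted p under 0.05, limma voom gave 3 higher averaged over the sexes, 6 lower in males and 9 higher for female minus male in KO, and no filter gave 14, 21 and 27. Summing WT male 2 and 3 gave 5 lower in males and 11 for female minus male in WT, where leaving out the opposed libraries gave 9. Leaving out each library in turn gave 3 to 10 averaged over the sexes, 14 to 25 in females, 3 to 17 in males, 4 to 20 for female minus male in WT, 5 to 21 for female minus male in KO and 16 to 32 for the interaction, with 0 passing after adjustment. A replicate block on the title numbers also left 0 passing and gave 4, 24, 14, 21, 13 and 26 in the same order. Libraries with the same number did not vary together (correlations of -0.21 to 0.13 in 18 pairs), so the numbers were not taken as pairs. Counts of single genes were low in WT female 2, down to 6 for Oasl1, which limits the precision of fold changes there.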
